A study of Homo sapiens with 2 samples.

Results

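The deletion sites described here came from a list that the paper gives as RBMS3-binding sites. They lay between genes and carried a deletion in a large share of the sequenced tags. They were chosen from a list of 27706 deletion sites by 3 criteria: the deleted base was not on the mitochondrial genome, it lay outside every GENCODE transcript of its own strand, and at least 30% of the tags that covered it had the deletion. A total of 1563 sites met them, which was 5.64% of the list, 86.6% of the 1805 intergenic sites outside the mitochondrial genome and 18.9% of the 8279 sites outside the mitochondrial genome with a deletion in 30% or more of tags. The deletion percentage was thus used to choose the sites, and its values are given as a description. Intergenic here means that no transcript is annotated on that strand. It does not mean that the DNA is unannotated, because 604 of the 1563 sites (38.6%) lay inside a transcript of the opposite strand.

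RBMS3 is an RNA-binding protein with RNA recognition motifs that prefers single-stranded sequence rich in A and U. In CLIP-seq, ultraviolet light links the protein to the RNA it touches, and the reverse transcriptase can skip a base at the remaining stub of protein, which leaves a deletion in the sequenced tag. A tag is 1 sequenced RNA fragment, counted once through its molecular identifier. Most mRNAs end a short way after a poly(A) signal, AAUAAA or its common variant AUUAAA, where the transcript is cleaved and a poly(A) tail is added. RNA beyond an annotated gene end can come from a longer transcript form or from a polymerase that has not yet stopped. Another source of mRNA-like sequence between genes is the processed pseudogene, a copy of an mRNA that was reverse transcribed and inserted elsewhere in the genome. Such copies often keep the poly(A) signal and the tail of the mRNA they came from.

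The samples were MDA-MB-231 cells, an established triple-negative breast cancer line, that expressed FLAG-tagged RBMS3 from a stably transduced lentiviral vector. There was 1 group with 2 biological replicates and no other treatment, and the tag sits at the N terminus of a transgene, so binding by the protein made from the cells' own gene was not measured. The title of replicate 2 names MDA-MB-231, while its source and cell line fields name MDA-MB-232. The authors pooled the tags of both replicates before calling sites, so the values below carry no spread over replicates, and the intervals given are 95% Wilson intervals that cover counting error only. No control library was analysed here, so a base skipped at a crosslink and a base that is missing from the cells' own genome cannot be told apart.

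The 10 sites with the most deletions are shown first, because they rest on the most tags with a deletion. Each line gives 25 nt on either side of the deleted base in hg38, read 5′ to 3′ on the strand of the site with T for U, and the deleted base is in capitals. The gene named is the nearest one upstream on that strand.
chrX:74410078-74410128, plus strand, RPS7P14: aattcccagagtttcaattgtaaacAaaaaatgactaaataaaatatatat
chr12:92718728-92718778, minus strand, EEA1: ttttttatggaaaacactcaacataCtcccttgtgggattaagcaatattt
chr13:85860923-85860973, plus strand, LINC00351: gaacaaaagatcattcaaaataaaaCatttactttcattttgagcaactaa
chr10:34829081-34829131, plus strand, PARD3-DT: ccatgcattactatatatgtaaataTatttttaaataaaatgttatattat
chr10:84561260-84561310, plus strand, RPS3AP5: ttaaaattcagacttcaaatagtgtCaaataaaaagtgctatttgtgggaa
chr2:57969533-57969583, minus strand, ENSG00000287875: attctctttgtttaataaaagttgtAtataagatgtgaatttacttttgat
chr3:66979381-66979431, plus strand, ENSG00000285738: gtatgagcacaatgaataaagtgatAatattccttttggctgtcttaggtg
chrX:133292992-133293042, plus strand, ENSG00000207100: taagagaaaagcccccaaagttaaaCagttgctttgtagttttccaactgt
chr6:7509058-7509108, minus strand, ENSG00000234115: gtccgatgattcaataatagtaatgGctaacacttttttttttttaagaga
chr4:167224622-167224672, plus strand, TLL1: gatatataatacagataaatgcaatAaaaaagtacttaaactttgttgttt

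Of these 10 windows, 7 held AATAAA or ATTAAA, and 6 of the deleted bases differed from both neighbours. The deepest site lay 3 nt after the end of RPS7P14, a processed pseudogene of the ribosomal protein gene RPS7. It had 437 deletions in 1248 tags, or 35% (32.4 to 37.7%). The site after RPS3AP5, a pseudogene of the ribosomal protein gene RPS3A, was 22 nt past the annotated end and had 137 deletions in 197 tags, or 69.5% (62.8 to 75.5%). Both windows carried AATAAA close after the deleted base.

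The second deepest site was on chromosome 12, in no transcript of its strand and 51884 nt after EEA1, the gene of an early endosome tether. It had 406 deletions in 871 tags, or 46.6% (43.3 to 49.9%). Its window held neither poly(A) signal nor the AUA motif. Of the other 7, the site on chromosome 3, 182485 nt after the lncRNA gene ENSG00000285738, had the highest percentage, with 115 of 137 tags deleted or 83.9% (76.9 to 89.1%).

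The 1563 sites had a median of 16 tags (quartiles 10 and 26, range 7 to 1248) and a median of 14 deletions (quartiles 10 and 22, range 7 to 437). The median percentage was 100, the lower quartile 83.3% and the lowest value 30.6%. The 242 intergenic sites under 30% were much deeper, with a median of 1018.5 tags (range 123 to 21249) and 53.5 deletions, and a median percentage of 6.41. High-percentage sites in introns resembled the intergenic ones in depth, with a median of 15 tags and 13 deletions at 2968 sites. Depth therefore moved with the percentage, and only 33 of the 1563 sites had 100 tags or more. The list held no intergenic site under 30% with fewer than 123 tags, so a comparison of high with low percentages was also one of shallow with deep sites.

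**Figure D1:**
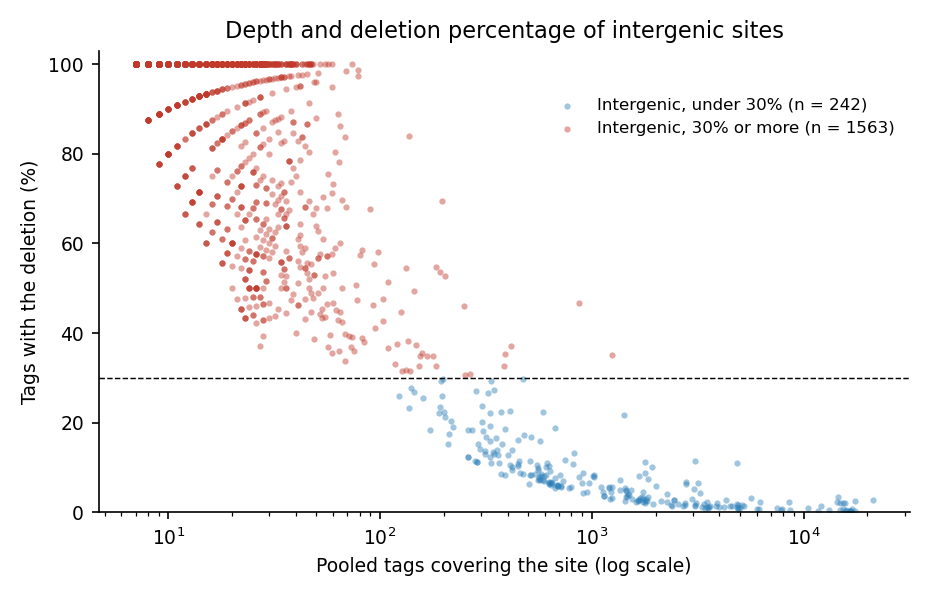
Each point is an intergenic site, with the pooled tags that cover it on a logarithmic x axis and the percentage of those tags with the deletion on the y axis. The dashed line is the 30% criterion. No site lies at the lower left, at few tags and a low percentage. The 1563 sites above the line have a median of 16 tags and the 242 below it a median of 1018.5 tags.

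At 979 of the 1563 sites (62.6%) every tag carried the deletion. Those sites were shallow, with a median of 13 tags and a maximum of 74, and 17 had more than 40 tags. In introns the share of high-percentage sites with the deletion in every tag was 65.4%. The 5 deepest intergenic sites of this kind are shown because their full percentage rests on the most tags, with the deleted base and any equal neighbours in capitals.
chr9:31680522-31680572, plus strand, MTCO3P30: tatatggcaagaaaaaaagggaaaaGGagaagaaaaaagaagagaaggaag
chr10:52318875-52318925, plus strand, DKK1: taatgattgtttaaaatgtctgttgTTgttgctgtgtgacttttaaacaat
chr4:53993699-53993749, minus strand, ENSG00000272650: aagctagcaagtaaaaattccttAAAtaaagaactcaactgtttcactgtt
chr7:34160140-34160190, plus strand, BMPER: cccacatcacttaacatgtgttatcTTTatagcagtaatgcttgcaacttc
chr10:17717376-17717426, plus strand, STAM: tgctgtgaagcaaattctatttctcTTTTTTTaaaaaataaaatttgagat

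The site on chromosome 9 had 74 deletions in 74 tags, which allows a percentage down to 95.1% at this depth. It lay far from any gene end of its strand, 173932 nt after the pseudogene MTCO3P30. The site after DKK1, the gene of a secreted Wnt antagonist, was 858 nt past the annotated end and had 59 deletions in 59 tags. That after STAM, which encodes a subunit of the endosomal sorting machinery, was 577 nt past the end with 52 of 52, in a run of 7 T with AATAAA after it. The site after BMPER, which encodes a secreted BMP-binding protein, lay 3738 nt past the end with 55 of 55. The fifth, 3691 nt after the lncRNA gene ENSG00000272650, had 57 of 57 and overlapped AATAAA.

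At the criterion itself, the 3 sites just inside had 30.6% (77 of 252 tags, 660 nt after ANKIB1), 30.9% (82 of 265 tags, 65095 nt after ENSG00000258580) and 31.5% (40 of 127 tags, 3945 nt after ESF1). The 3 just outside had 29.9% (141 of 472 tags, 15598 nt after ENSG00000257545), 29.8% (59 of 198 tags, 777 nt after CCDC90B) and 29.3% (98 of 334 tags, 1641 nt after ARL6IP1P3). The 95% intervals of all 6 contained 30%, so the membership of each of these sites was within counting error.

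High-percentage intergenic sites lay farther from the nearest annotated gene 3′ end upstream than low-percentage ones. The nearest gene 3′ end upstream on the same strand was a median of 12428.5 nt away (quartiles 2417.5 and 71262), against 1230.5 nt for intergenic sites under 30%. For tests, sites within 50 nt on a strand were joined into clusters, with the site of most deletions standing for the cluster, which gave 1561 high-percentage intergenic, 194 low-percentage intergenic and 2959 high-percentage intronic clusters. Of the first, 565 (36.2%, interval 33.8 to 38.6%) were within 5000 nt after a gene end, against 145 of 194 (74.7%, interval 68.2 to 80.3%). The difference of −38.5 percentage points (interval −44.6 to −31.6) passed a two-sided Fisher's exact test with an adjusted p of 8.61e-24. The Benjamini-Hochberg adjustment ran over all 15 tests of the report.

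**Figure D2:**
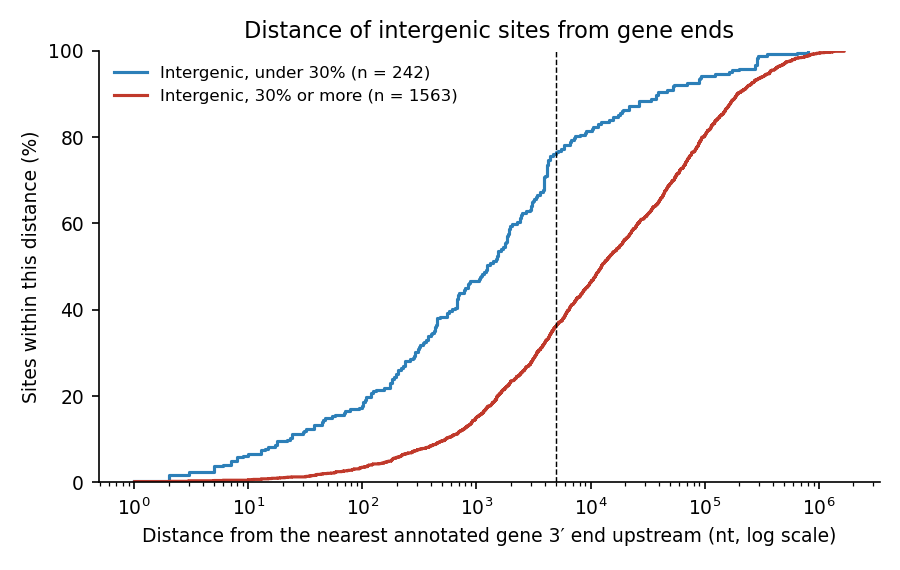
The curves give the percentage of intergenic sites (y axis) that lie within a given distance after the nearest gene 3′ end upstream on the same strand (x axis, logarithmic, in nt). At the dashed line at 5000 nt the curve of the 1563 sites with 30% or more stands at 36.3%, and that of the 242 sites under 30% at 76.4%.

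Within 5000 nt, 567 of the 1563 sites followed a gene. That gene was protein coding for 386 sites (68.1%), a lncRNA gene for 96 (16.9%) and a processed pseudogene for 71 (12.5%). Of the 185 intergenic sites under 30% within the same distance, 116 (62.7%) followed a coding gene and 57 (30.8%) a processed pseudogene. Where the gene was coding, it also had a listed site in its 3′UTR for 268 of 386 high-percentage sites (69.4%) and for 100 of 116 low-percentage sites (86.2%). These shares are descriptions and were not tested.

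The 567 sites were spread over 543 genes, of which 20 had 2 or more clusters. ZC3HAV1L, a relative of the zinc finger antiviral protein gene, had 3 sites between 1052 and 3634 nt past its end. They had 7 of 7, 38 of 56 and 8 of 8 tags with the deletion, and the gene also had a listed 3′UTR site. ALG10, which encodes a glucosyltransferase of the N-glycan precursor, had 3 as well, with 8 of 8, 8 of 8 and 24 of 30 tags. All 3 windows resembled a transcript of its paralog ALG10B over 121 to 123 aligned nt, at 90.9 to 99.2% identity, so the assignment to ALG10 is uncertain.

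All other genes of the 20 had 2 clusters each, and the 8 of them with the most deletions are named. WDR31, which encodes a WD repeat protein, had 50 of 64 and 47 of 47 tags deleted at 2167 and 3903 nt. ZNF724, a zinc finger gene, had 46 of 46 and 15 of 28 at 1433 and 1758 nt. MRPL3, which encodes a mitochondrial ribosomal protein, had 15 of 26 and 28 of 33 at 796 and 930 nt. SERINC1, a serine incorporator gene, had 25 of 37 and 15 of 15. GALNT13, which encodes an enzyme that starts O-glycosylation, had 9 of 10 and 27 of 27. DHRS7, a short-chain dehydrogenase gene, had 23 of 52 and 20 of 26. The lncRNA genes ENSG00000286753 and ENSG00000253768 completed the set, and at 1 of the latter's sites the window resembled transcripts of 168 genes. In 5 of these 8 genes, which were taken by their deletions, every tag carried the deletion at 1 site and under 80% of tags did at the other.

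The sites were isolated from one another and from the rest of the list. Another listed site lay within 50 nt at 11 of the 1563 (0.704%), against 83 of 242 low-percentage intergenic sites (34.3%) and 24 of 2968 high-percentage intronic sites (0.809%). Within 1000 nt the shares were 6.65%, 47.1% and 3.94%. Of the 1561 clusters, 1559 held a single site. Joining members of a strand with gaps of at most 10000 nt gave 1504 loci, of which 1449 held 1 cluster, 53 held 2 and 2 held 3. The loci with 3 were those after ZC3HAV1L and ALG10, and those next in deletions were after WDR31, the lncRNA gene ENSG00000272650 (28 of 66 and 57 of 57 tags) and CGRRF1, a ubiquitin ligase gene (24 of 46 and 47 of 69 tags).

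High-percentage intergenic clusters lay inside a transcript of the opposite strand more often than intronic ones, and no such difference passed the test against other intergenic clusters. Of the 1561 clusters, 603 (38.6%, interval 36.2 to 41.1%) lay inside a transcript of the opposite strand, against 298 of 2959 intronic clusters (10.1%, interval 9.04 to 11.2%). That difference of 28.6 percentage points (interval 25.9 to 31.2) had an adjusted p of 2.71e-109 by Fisher's exact test. However, intronic sites lie by definition inside a gene of their own strand, and intergenic ones outside any. The groups are thus defined by the annotation from which the feature is read. The part of the difference that this sets was not tested. Over all 16020 clusters the share was 18.7%. With at least 100 tags, 24.2% of 33 intergenic and 20% of 25 intronic clusters were left with the feature, a difference of 4.24 points that no longer passed (adjusted p = 0.983, exact test). Against low-percentage intergenic clusters (36.1%) the difference was 2.55 points with an interval of −4.82 to 9.42 and an adjusted p of 0.613, and its sign turned with at least 100 tags (−11.8 points) and beyond 5000 nt from a gene end (−1.99 points). Sites inside an exon of the opposite strand were 99 of the 1563 (6.33%), and 589 (37.7%) were neither in a transcript of the opposite strand nor within 5000 nt after a gene end.

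The deleted base was U at fewer of these clusters than in either comparison group. U was deleted at 786 of 1561 clusters (50.4%, interval 47.9 to 52.8%), A at 21.7%, G at 15.4% and C at 12.6%. In the positions 6 to 25 nt away on either side, U made up 31.4% and A 36.5% of bases. The share of U was 69.1% of low-percentage intergenic clusters (difference −18.7 points, interval −25.3 to −11.5, adjusted p = 1.65e-06 by Fisher's exact test) and 57.4% of high-percentage intronic clusters (difference −7.00 points, interval −10.04 to −3.94, adjusted p = 1.33e-05). The latter no longer passed the exact test with at least 100 tags (−5.58 points, adjusted p = 0.983), nor the former beyond 5000 nt from a gene end (−16.4 points, adjusted p = 0.0514). Over all 16020 clusters outside the mitochondrial genome the share was 67.5%.

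Deletions in runs of equal bases were also fewer. The deleted base lay in a run of 3 or more at 596 of 1561 clusters (38.2%), against 63.4% of low-percentage intergenic clusters (difference −25.2 points, interval −32.1 to −17.8, adjusted p = 6.58e-11) and 47.0% of high-percentage intronic clusters (difference −8.83 points, interval −11.8 to −5.80, adjusted p = 2.94e-08), all by Fisher's exact test. The difference from intronic clusters no longer passed the exact test with at least 20 deletions (−5.55 points, adjusted p = 0.0899) and turned with at least 100 tags (19.4 points, adjusted p = 0.388), where that from low-percentage clusters no longer passed either (−24.0 points, adjusted p = 0.0609). At 588 clusters (37.7%) the deleted base differed from both neighbours, and there U, G, C and A were deleted at 27.9%, 26.9%, 26.4% and 18.9%. In those clusters the difference in U no longer passed Fisher's exact test against either group (−9.89 points with adjusted p = 0.338, and −5.02 points with adjusted p = 0.114). Within a run the exact base that was skipped cannot be told.

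The windows were rich in A and U, with a median GC content of 29.4% over 51 nt, and poly(A) signals were common in them. AATAAA or ATTAAA, searched on the strand of the site only, was present in 683 of 1561 windows (43.8%, interval 41.3 to 46.2%). AATAAA was in 512 (32.8%) and ATTAAA alone in 171 (11%). The share was above that of high-percentage intronic windows, 30.7% (difference 13 points, interval 10.1 to 16, adjusted p = 2.29e-17 by Fisher's exact test). It was below that of low-percentage intergenic windows, 72.2% (difference −28.4 points, interval −34.7 to −21.3, adjusted p = 1.88e-13, exact test). Of all 16020 windows, 51.1% held a signal. With at least 100 tags in both groups, 33 clusters of 1561 were left, 57.6% of them had a signal, and neither the difference from the low-percentage clusters (−14.6 points, adjusted p = 0.307, exact test) nor that from the intronic clusters (17.6 points, adjusted p = 0.452) passed.

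The signal lay on either side of the deletion. It was wholly upstream of the deleted base in 23% of windows, overlapped it in 6.73% and was wholly downstream in 19.3%. Among the 10 most frequent hexamers AATAAA was first, followed by AAATAA (20.7%), ATAAAA (19.3%), TAAAAA (18.6%), AAAATA (17.6%), TTAAAA (16.3%), AAAAAT and ATAAAT (16.2% each), AAAAAA (14.8%) and ATTAAA (14.2%). All 10 were less frequent in high-percentage intronic windows, where AATAAA was in 21.2%, and more frequent in low-percentage intergenic windows, where it was in 57.2%. The 10 were taken by their frequency in the high-percentage intergenic windows, which favours lower values elsewhere, and many overlap one another. These shares are thus a description and were not tested.

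The AUA motif was searched as 7 bases: A, G or U, then A or U, then AUA, then A or U, then A. It shares bases with AATAAA, since AATAAA preceded by A, G or U is itself a match. The motif was in 589 of 1561 windows (37.7%), above the 27.6% of high-percentage intronic windows (difference 10.2 points, interval 7.27 to 13.1, adjusted p = 1.17e-11 by Fisher's exact test) and below the 53.6% of low-percentage intergenic windows (difference −15.9 points, interval −23.2 to −8.45, adjusted p = 4.95e-05). Over all 16020 windows it was 41.4%. The difference from low-percentage windows was −2.09 points with at least 100 tags (adjusted p = 0.983, exact test) and −4.62 points in windows of 10 nt on each side (adjusted p = 0.167), neither of which passed. That from intronic windows was 15.5 points with at least 100 tags and did not pass there (adjusted p = 0.452, exact test). In the 878 windows of high-percentage intergenic clusters without a poly(A) signal it was in 14.7%. The difference from the corresponding low-percentage windows was −9.38 points and did not pass (adjusted p = 0.145, exact test). That from the corresponding intronic windows (10.6%) was 4.06 points and passed (adjusted p = 0.00553, exact test). This setting was added after the values were seen.

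Stretches of A can prime reverse transcription from oligo(dT), so a run of at least 6 A within 50 nt after the deletion was counted. It was present at 321 of 1561 clusters (20.6%). That was below the 29.9% of low-percentage intergenic clusters (difference −9.33 points, interval −16.4 to −2.98, adjusted p = 0.00548 by Fisher's exact test) and differed from the 21.6% of high-percentage intronic clusters by −1.07 points with an interval of −3.52 to 1.46 (adjusted p = 0.528). Over all clusters the share was 13.8%. The difference from low-percentage clusters no longer passed with at least 100 tags (−17.8 points, adjusted p = 0.133, exact test), outside transcripts of either strand (−6.68 points, adjusted p = 0.134) or beyond 5000 nt from a gene end (−6.25 points, adjusted p = 0.422). The part of such priming in these sites was not tested.

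**Figure D3:**
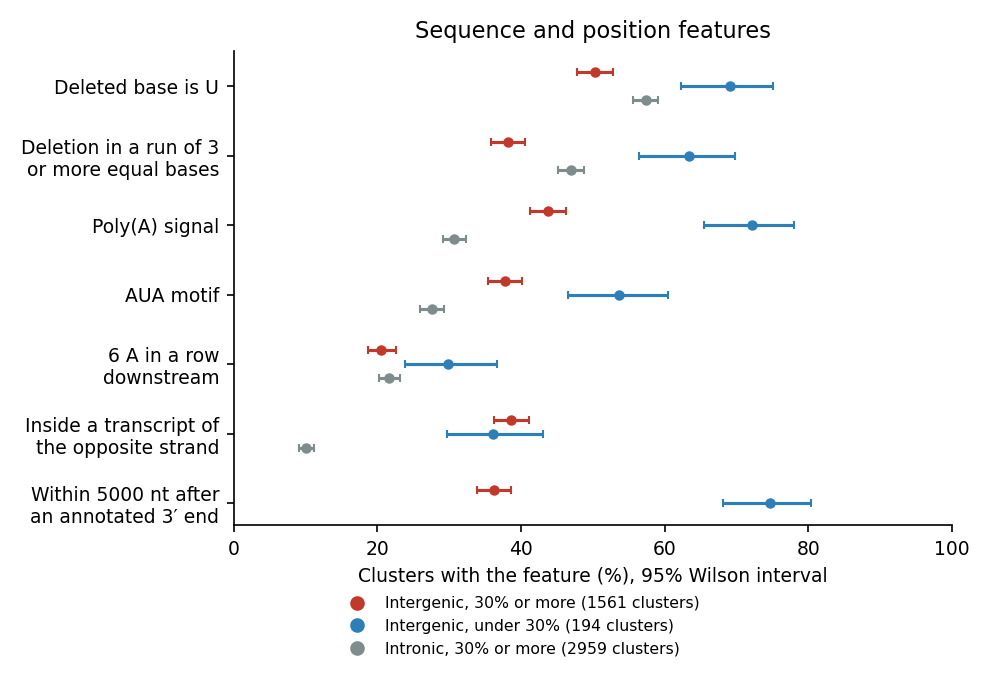
Percentage of clusters with each feature (x axis) in 3 groups, shown as points with 95% Wilson intervals. High-percentage intergenic clusters lie between the other groups for poly(A) signals (43.8%) and the AUA motif (37.7%), and below both for U deletions (50.4%) and runs (38.2%). The last feature is defined for intergenic sites alone.

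Depth and percentage moved with these features among the 1563 sites. A poly(A) signal was in the window of 38.7% of sites with 7 to 10 tags, 41% with 11 to 20, 47.0% with 21 to 40, 57.7% with 41 to 99 and 57.6% with 100 or more. By percentage it was at 53.8% of the 91 sites from 30% to under 50%, 52.8% of the 267 from 50% to under 80%, 48.7% of the 226 from 80% to under 100% and 39.2% of the 979 with the deletion in every tag. Location after a gene end within 5000 nt had the same order, from 48.4% and 47.9% through 40.7% to 30.9%. The share of U deletions had no such order and stayed between 44.7% and 53.8%. The part of depth in these shares was not tested.

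The deleted base and the poly(A) signal varied with the distance from the nearest gene 3′ end upstream, in classes chosen after the values were seen. Of the 333 sites from 1001 to 5000 nt after a gene end, 63.1% (interval 57.8 to 68.1%) had a deleted U and 53.8% (48.4 to 59%) lay in a run of 3 or more. Of the 601 sites beyond 30000 nt, 41.9% (38 to 45.9%) had a deleted U and 24.3% (21 to 27.9%) lay in a run. Sites with a deleted U inside a run were 43.2% of the nearer class and 16.3% of the farther one. The order did not start at the gene end: of the 234 sites within 1000 nt, 56% had a deleted U and 47.4% lay in a run, and of the 394 from 5001 to 30000 nt 49% and 40.9% did. Deleted bases unlike both neighbours were 22.2% of the nearer and 52.9% of the farther sites, and G was deleted at 11.4% and 20.3%. The share of U in the surrounding bases was 32.4% and 31.1%, so the flanks differed less than the deleted base did.

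Poly(A) signals differed the other way between these classes, with 36.9% (31.9 to 42.2%) at 1001 to 5000 nt and 48.8% (44.8 to 52.7%) beyond 30000 nt. They were at 39.3% of sites within 1000 nt and 44.4% from 5001 to 30000 nt. The share of sites with the deletion in every tag was 46.2% within 1000 nt, 58.6% from 1001 to 5000 nt, 63.5% from 5001 to 30000 nt and 70.7% beyond that. Median depth was 19, 17, 15 and 15 tags in these classes. A single site had no gene end upstream on its strand.

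**Figure D4:**
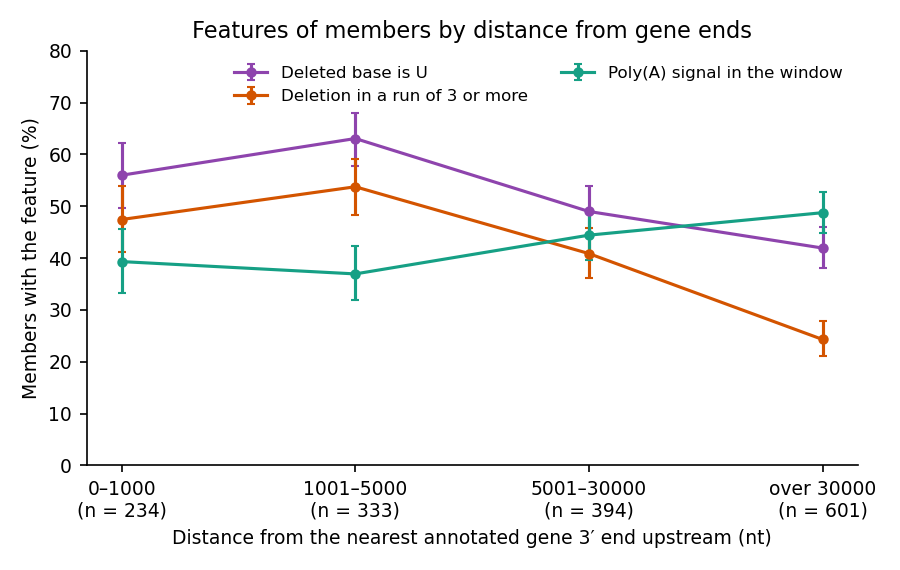
Percentage of high-percentage intergenic sites (y axis, with 95% Wilson intervals) whose deleted base is U, whose deletion lies in a run of 3 or more equal bases, or whose 51-nt window holds AATAAA or ATTAAA, in 4 classes of distance from the nearest gene 3′ end upstream (x axis). From 1001 to 5000 nt to beyond 30000 nt, U went from 63.1% to 41.9% and runs from 53.8% to 24.3%, while poly(A) signals went from 36.9% to 48.8%.

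Some of the sites lay in sequence that resembled annotated transcripts, which need not be copies of mRNAs. Windows of 121 nt were aligned to spliced GENCODE transcripts, and a site was counted where at least 50 nt that covered the deletion and 10 nt on either side aligned at 90% identity or more. This measure was added after the values were seen. It held for 173 of 1563 sites (11.1%, interval 9.61 to 12.7%), against 64 of 242 low-percentage intergenic sites (26.4%, interval 21.3 to 32.3%) and 240 of 2968 high-percentage intronic sites (8.09%, interval 7.16 to 9.12%). Of the 173, 135 matched at most 10 genes, and 45 of those 135 (33.3%) lay within 5000 nt after a pseudogene, against 52 of 64 (81.3%) low-percentage sites. At 95% identity the count was 54 (3.45%) and at 85% it was 276 (17.7%).

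Besides RPS7P14 and RPS3AP5, the following 4 windows are shown because a named processed pseudogene precedes them and the poly(A) signal, in capitals, stands near the deleted base at position 26.
chrX:71040783-71040833, minus strand, SOCS5P4: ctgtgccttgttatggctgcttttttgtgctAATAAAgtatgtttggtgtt
chrX:41748617-41748667, plus strand, RPS15AP39: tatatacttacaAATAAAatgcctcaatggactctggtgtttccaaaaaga
chr1:15191746-15191796, minus strand, MFFP1: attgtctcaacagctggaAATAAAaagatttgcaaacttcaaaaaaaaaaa
chr6:137543491-137543541, minus strand, BTF3L4P3: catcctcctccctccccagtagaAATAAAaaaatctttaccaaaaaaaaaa

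The site 2406 nt after SOCS5P4 had 54 of 155 tags with the deletion, and its window was 95.1% identical over 122 nt to a transcript of SOCS5, a suppressor of cytokine signalling. That 34 nt after RPS15AP39 had 50 of 153 and was 92.7% identical over 82 nt to RPS15A, a ribosomal protein gene. That 57 nt after MFFP1 had 48 of 82 and was 92.2% identical over 77 nt to MFF, a mitochondrial fission factor gene. That 381 nt after BTF3L4P3 had 45 of 120 and was 93.4% identical over 76 nt to BTF3L4. SOCS5, MFF and BTF3L4 had a listed 3′UTR site of their own, and RPS15A, RPS7 and RPS3A had no listed site in theirs. The 4 windows shown were chosen for their signal and do not give its share among sites after pseudogenes. Windows after other processed pseudogenes, such as HMGB1P37 and HNRNPA3P13, held no signal.

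Of the 135 sites that matched few genes, 62 (45.9%) matched best to a gene with a listed 3′UTR site. The same held for 53 of 64 low-percentage intergenic sites (82.8%) and 50 of 141 high-percentage intronic sites (35.5%). Tags from such a transcript and tags from the site's own place cannot be told apart in the counts, and these sites are uncertain as to their gene.

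An mRNA copy can also show a deletion because the transcript lacks a base that the copy has. In the alignments, a gap fell on the deleted base or its run at 10 of the 173 sites, 3 of which matched at most 10 genes. RPS7P14, with the most deletions of all, and RPS15AP39 were among these. Such a gap was also found at 17 of 240 high-percentage intronic and 1 of 64 low-percentage intergenic sites that resembled transcripts.

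A search of all of hg38 for such sequences by exact match gave no hit. When the deleted base was removed from each 51-nt window, the remaining 50 nt occurred elsewhere in hg38 at 0 of 1563 sites. For exact copies this allows a share of up to 0.192% by 3 counts of the total and 0.245% by the Wilson interval. A tag without the base would match such a copy with no gap, so an aligner would tend to place it there. A low count was thus likely in every part, and the 0 does not show where the tags came from. The intact 51 nt occurred elsewhere at 16 sites (1.02%). When the base 10 nt to either side was removed in its place, 0 and 1 sites had a match. With 30 nt, 17 sites had a match after removal of the deleted base and 15 and 18 after removal of the bases beside it. No low-percentage intergenic or high-percentage intronic site had a 50-nt match either, so Fisher's exact test gave p = 1 in both comparisons. Genes that hold such exact copies could therefore not be named. An exact match misses any copy that differs from the site at another base. The bound thus does not cover diverged copies, such as those at the 10 sites with a gap in the alignments.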

How the data were processed

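The authors appended molecular identifiers to the reads of both replicates and used the CLIP Tool Kit to align them to hg38, reduce them to unique tags, pool the replicates and call deletion sites filtered by false discovery rate and by fold. The deposited values are raw counts of pooled tags that cover a site and of tags with the deletion, and no total depth per library was analysed here. Every listed interval is 21 nt long and its centre was taken as the deleted base, with coordinates counted from 1. The centres of all 27706 sites lay inside the chromosomes of the hg38 sequence used, and mitochondrial position 3107, which is N there, was a listed centre.

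Sites were placed on GENCODE release 44 with strand taken into account. Sites with at least 30% of tags deleted were compared with intergenic sites under 30% and with intronic sites of at least 30% by two-sided Fisher's exact tests on clusters (15 tests, Benjamini-Hochberg adjustment, threshold 0.05). Intervals of differences are Newcombe's. Clusters are not replicates of a condition, so p-values compare parts of 1 pooled list. The sites, features and comparisons were chosen with earlier results of these data known. Sites named are the 10 with the most deletions, the 5 deepest with the deletion in every tag, the 3 on each side of the criterion, the 5 loci and 10 genes with the most clusters, and the 10 most frequent hexamers. The deepest sites with every tag deleted, the sites after named pseudogenes and the distance classes were chosen after their values were seen. The alternatives were every site, at least 20 deletions, at least 100 tags, a 50% criterion, both strands, other windows and lengths, and 3 added later. Functions were tested on simulated data. Alignments used blastn 2.17.0 (word size 11, e-value 1e-05), and the rest Python 3.11.15, scipy 1.17.1, statsmodels 0.14.6, numpy 2.4.6, pandas 2.3.3, numba 0.67.0 and matplotlib 3.10.9.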

Additional observations from a re-analysis of the deposited data

How the results depend on the processing

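The 15 comparisons were recomputed under 12 other settings, 98 values in all, of which 78 kept their side of the threshold with no change of sign, 17 kept their direction and no longer passed, and 3 turned. The sequence copies had no direction, being 0 in each group, and with 30 nt they differed by 1.09 and 0.143 without passing. Differences below are in percentage points. With at least 100 tags per site, 33 clusters were left against 194 low-percentage intergenic and 25 high-percentage intronic clusters, and no longer passing were runs (−24.0), poly(A) signals (−14.6), the AUA motif (−2.09) and A stretches (−17.8) against the former, and U deletions (−5.58), poly(A) signals (17.6), the AUA motif (15.5) and opposite-strand transcripts (4.24) against the latter, where runs turned (19.4). Opposite-strand transcripts against low-percentage clusters, which had not passed, turned there (−11.8) and beyond 5000 nt from a gene end (−1.99). With at least 20 deletions, runs against intronic clusters were at −5.55. Outside transcripts of either strand, A stretches against low-percentage clusters were at −6.68, and with windows of 10 nt on each side the AUA motif was at −4.62. In settings chosen after seeing the data, U deletions at bases unlike their neighbours were at −9.89 and −5.02, the AUA motif without a poly(A) signal at −9.38 against low-percentage clusters, and beyond 5000 nt from a gene end U deletions, the AUA motif and A stretches were at −16.4, −11.6 and −6.25 against 49 low-percentage clusters. The cause was not tested. All of these settings except the windows of 10 nt leave fewer clusters. Location within 5000 nt passed under every setting run for it. The share of repeat-masked bases was not run, because the genome sequence used has no masking. No paired analysis was possible because the replicates were pooled. Depth limits single sites: with 7 of 7 tags deleted the interval reaches down to 64.6%.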

Other observations

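Repeated sequence was present around part of the sites. Of the 20-nt words that hold the deleted base, the one with the most copies was taken for each site. It occurred at 100 or more places in hg38 for 153 of 1563 sites (9.79%, interval 8.41 to 11.4%). The share was 3.72% of 242 low-percentage intergenic and 12.6% of 2968 high-percentage intronic sites. At 79 of the 1563 sites (5.05%) that word occurred at 1000 or more places. For such sites the assignment of tags to 1 place is uncertain.

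A pair of sites on the minus strand of chromosome 3 resembled MT-RNR2, the mitochondrial 16S ribosomal RNA gene. Their windows were 94.2% and 97.5% identical to it over 121 nt, and they had 38 of 54 and 27 of 73 tags with the deletion. Upstream on their strand, the nearest annotated gene 3′ end was 192693 nt from the first and 192933 nt from the second. Tags from the mitochondrial RNA and tags from these places cannot be told apart in the counts. The assignment of both sites to chromosome 3 is thus uncertain.

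The sites were on 24 chromosomes, 788 on the plus and 775 on the minus strand, and none was listed at the same position on the other strand. Their density was highest on chromosome 19, with 0.751 per Mb (44 sites), followed by chromosome 12 with 0.690 (92 sites) and chromosome 3 with 0.646 (128 sites). It was lowest on chromosome Y with 0.0699 (4 sites), followed by 0.235 on chromosome 15 (24 sites) and 0.275 on chromosome 22 (14 sites). The chromosome Y site 96 nt after the processed pseudogene EIF4A1P2 had 18 of 36 tags with the deletion. Its window was 90.9% identical over 110 nt to a transcript of EIF4A1, which had a listed 3′UTR site, so its assignment to chromosome Y is uncertain. Whether these cells hold a chromosome Y was not examined, so the place of all 4 sites listed there is uncertain. The densities were not compared with the density of genes or of transcription.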
